A study of Homo sapiens with 3 samples.

Results

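The p68 sites described here are those of NTERA2 cells that lie more than 50 kb from every SRA site. They were chosen by the edge-to-edge gap between each p68 site and the nearest SRA site on the same chromosome, on 13 chromosomes (1, 2, 3, 7, 8, 9, 11, 12, 15, 16, 17, 19 and 20). Of the 12069 p68 sites on these chromosomes, 6522 met the rule and are called far sites, and the other 5547 are called the remaining sites. Since the gap to SRA chose the members, that gap is given as a description only. The far sites made up 46.2% of the 14131 p68 sites of the series.

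NTERA2 is an established human line of embryonal carcinoma cells that shares many properties with pluripotent stem cells, and all samples of the series came from this line, grown in DMEM with serum, with no treatment named. An antibody against p68 was used for ChIP-seq, oligonucleotide probes against the RNA SRA were used for ChIRP-seq, and input chromatin made up the third sample. The study describes 3 biological replicates for each assay, which its authors merged into 1 list of sites per assay by intersection. Each list holds a chromosome, a start and an end on hg19, with no score or read count, so that the depth behind a site and its spread between replicates are unknown. With 1 list per assay no test across samples could be made. The intervals below are 95% intervals that cover counting error only, and because neighbouring sites are not independent they are narrower than the true uncertainty.

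p68, the product of the gene DDX5, is an RNA helicase of the DEAD-box family that works in RNA processing and also acts as a coactivator of transcription at chromatin. SRA is a long non-coding RNA first described as a coactivator of steroid receptors, and p68 is one of the proteins that bind it. In ChIP an antibody recovers the DNA near a protein, whereas in ChIRP biotinylated oligonucleotides pair with an RNA and recover the DNA near that RNA. The far sites are thus places where the p68 antibody gave a site while no SRA site was listed for at least 50 kb on either side.

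Whether a p68 site counts as far depends on what the SRA probes recovered. The probe set holds 29 oligonucleotides of 20 nt, with GC contents from 35% to 70%. The first, the fifteenth and the last of the set are shown 5′ to 3′ as the reagents that define the SRA list.
SRA_1: ggctgatgtcatcacatacc
SRA_15: tctctgatgcggggactctg
SRA_29: tgaggcagcagtttgtttgg
Their GC contents were 50%, 60% and 50%. Neither hg19 sequence nor hg19 gene annotation was used here, so the DNA of the far sites is not printed and the genes at them are not named.

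Far sites were a majority of the p68 sites on 11 of the 13 chromosomes. Over all 13 they were 54.0% (53.1 to 54.9%, Wilson interval). Chromosome 8 had the highest share, with 322 of its 415 p68 sites far from SRA (77.6%). Chromosome 2 followed with 937 of 1320 (71.0%) and chromosome 17 with 165 of 240 (68.8%). The share was lowest on chromosome 1, where 795 of 2722 p68 sites were far (29.2%), and next lowest on chromosome 11, with 335 of 754 (44.4%). Chromosome 1 also carried 2388 of the 7545 SRA sites of these chromosomes. Sequence more than 50 kb from SRA made up 92.4% of the span of chromosome 8 and 64.5% of that of chromosome 1. These were the highest and the lowest such values of the 13. On every chromosome the share of p68 sites that were far was below the share of its span that was far. The largest numbers of far sites were on chromosomes 2, 7, 12 and 1, with 937, 904, 813 and 795, and these 4 held 52.9% of them.

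**Figure D1:**
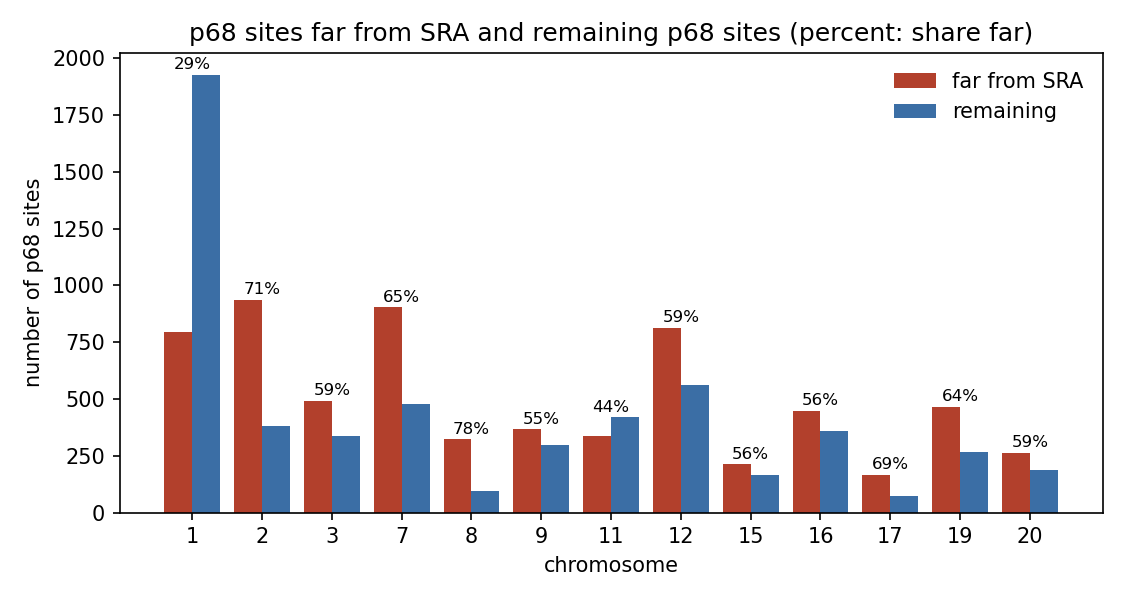
Number of p68 sites (vertical axis) on each of the 13 chromosomes (horizontal axis), with far sites in red and remaining sites in blue; the percent above each pair is the share of far sites. The red bar is the higher of the pair on every chromosome except 1 and 11, where 29.2% and 44.4% of the p68 sites were far.

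Most far sites lay well beyond the limit of 50 kb. The median gap to the nearest SRA site was 272 kb, with quartiles of 105 kb and 1641 kb, against a median of 11.3 kb for the remaining sites. A gap of over 100 kb was found for 4988 far sites (76.5%), a gap of over 1000 kb for 1972 (30.2%) and a gap of over 10 Mb for 719. The sites just inside the limit were on chromosome 3 from 51460094 to 51461761, with a gap of 50.016 kb and a width of 1668 bp, and on chromosome 1 from 200552688 to 200553996, with a gap of 50.036 kb and a width of 1309 bp. Just outside it were a site on chromosome 11 from 9429802 to 9430971, with a gap of 49.949 kb and a width of 1170 bp, and a site on chromosome 16 from 69691963 to 69692912, with a gap of 49.839 kb and a width of 950 bp.

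The far sites with the largest gaps all lay at the start of chromosome 16. The site at 73552 to 74065 was 514 bp wide and lay 28.55 Mb from SRA. The site at 122033 to 123149, 1117 bp wide, lay 28.50 Mb away, and the site at 149336 to 150236, 901 bp wide, lay 28.47 Mb away. The gaps between neighbouring SRA sites, and the ends of chromosomes outside the first and last of them, gave 1197 SRA-free intervals with at least 1 far site. The median interval held 2 far sites and was 376 kb long, and 399 intervals held a single far site. The distribution was uneven, since 88 intervals were enough to hold 50% of the far sites. The 16 intervals longer than 10 Mb held 1505 far sites (23.1%).

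The SRA-free interval with the most far sites was the start of chromosome 16, from 73552 to 28621177, which held 336 of them, or 11.8 per Mb. A pair of intervals on chromosome 7 came next. The one from 55433213 to 75920116 held 258 far sites in 20.5 Mb (12.6 per Mb), and the one from 75921759 to 131286289 held 255 in 55.4 Mb (4.61 per Mb). These neighbouring stretches are separated by a single SRA site and differed in more than density. Far sites of the former had a median width of 1317 bp (1206 to 1398) and 58.9% of them had another p68 site within 10 kb, whereas those of the latter had a median of 1037 bp (1000 to 1086) and 30.6%. Shorter stretches could be denser still. On chromosome 2 the interval from 25601095 to 30370688 held 160 far sites, or 33.5 per Mb, and on chromosome 12 the interval from 31929860 to 34445255 held 73, or 29.0 per Mb.

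Beyond 50 kb from SRA, the number of p68 sites per Mb of sequence fell with distance up to 10 Mb. To measure this, the sequence between the first and the last listed site of each chromosome was divided by its distance from the nearest SRA site, and the p68 midpoints in each class were counted. Closer to SRA the density was 10.8 per Mb inside SRA sites, 52.7 in the first 500 bp outside them, 18.9 at 0.5 to 10 kb and 13.2 at 10 to 50 kb. Only midpoints were counted, so 221 p68 sites fell inside SRA sites, while 691 overlapped an SRA site or met it. The low value inside is therefore not a measure of overlap. At 50 to 100 kb from SRA there were 9.62 p68 sites per Mb (9.15 to 10.1, exact Poisson interval), at 100 to 250 kb 6.74 (6.41 to 7.07), at 250 to 1000 kb 3.80 (3.61 to 4.01) and at 1 to 10 Mb 2.61 (2.47 to 2.76). Beyond 10 Mb the density was higher again, at 4.49 per Mb (4.17 to 4.83). Of the 719 far sites with a gap of over 10 Mb, 354 were on chromosome 7 and 258 on chromosome 16, which is 85.1% of them.

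**Figure D2:**
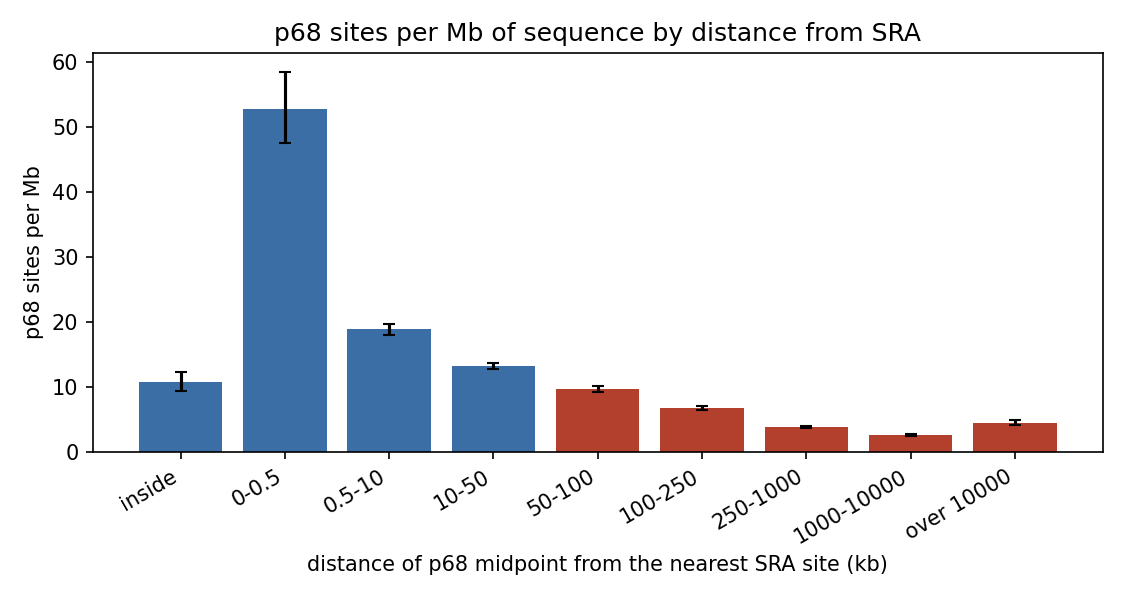
Number of p68 sites per Mb of sequence (vertical axis) against the distance of the p68 midpoint from the nearest SRA site in kb (horizontal axis), over the 13 chromosomes, with classes up to 50 kb in blue and beyond 50 kb in red; bars are densities and whiskers 95% exact Poisson intervals that cover counting error only. Among the red bars the density falls from 9.62 per Mb at 50 to 100 kb to 2.61 per Mb at 1 to 10 Mb and is 4.49 per Mb beyond 10 Mb.

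The same order was seen within single chromosomes. In 12 of 13 chromosomes p68 sites were denser at 50 to 100 kb from SRA than beyond 1 Mb, and in all 13 they were denser at 10 to 50 kb than at 50 to 100 kb. On chromosome 7, for example, there were 9.97 p68 sites per Mb at 50 to 100 kb and 6.78 beyond 1 Mb. On chromosome 19 the fall was larger, from 29.4 to 3.25. Chromosome 16 was the exception, with 4.62 per Mb at 50 to 100 kb and 8.60 beyond 1 Mb. Sequence more than 50 kb from SRA made up 79.8% of the span of the 13 chromosomes (1415 Mb) and held 4.61 far sites per Mb, while the sequence within 50 kb held 15.5 remaining sites per Mb. The ratio of these densities was 0.298 over all chromosomes and lay between 0.206 on chromosome 11 and 0.636 on chromosome 17. Stretches without assembled sequence count as sequence here, and leaving out the widest stretch of each chromosome with no site in either list raised the density of far sites to 5.02 per Mb. The densities by distance, over all chromosomes and within single ones, were not corrected in this way.

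Far sites were close in width to the remaining p68 sites. Their median width was 1185 bp (1168 to 1198, exact binomial interval), with quartiles of 943 and 1654 bp, and that of the remaining sites was 1274 bp (1256 to 1292), with quartiles of 985 and 1760 bp. The ratio of the medians was 0.930. Sites wider than 2 kb made up 15.5% of far sites (1012 sites, 14.7 to 16.4%) and 18.5% of remaining sites (1025 sites, 17.5 to 19.5%). Sites wider than 5 kb numbered 88 among far sites (1.35%, 1.10 to 1.66%) and 59 among remaining sites (1.06%, 0.826 to 1.37%), and these intervals overlapped. Without chromosomes 1 and 12 they numbered 27 of 4914 far sites (0.549%, 0.378 to 0.798%) and 2 of 3058 remaining sites (0.0654%, 0.0179 to 0.238%), with intervals apart, and 20 of these 27 far sites were on chromosome 2. The far sites together covered 9.59 Mb.

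The size of the small difference in width changed with the chromosomes that were included. Chromosome 1, where p68 sites were wide in both classes, supplied 34.7% of the remaining sites but 12.2% of the far sites. Without chromosome 1 the ratio of the medians was 0.974 (0.947 to 1.01). Without chromosome 12 the difference was larger instead, with a ratio of 0.906 (0.880 to 0.930). Without both chromosomes the ratio was 0.963 (0.935 to 0.988). By gap to SRA, the median width was 1261 bp (1228 to 1295) at 50 to 100 kb, 1229 bp (1194 to 1271) at 100 to 250 kb, 1157 bp (1123 to 1200) at 250 to 1000 kb, 1139 bp (1098 to 1163) at 1 to 10 Mb and 1087 bp (1059 to 1117) beyond 10 Mb. With chromosomes 1 and 12 left out, the same classes had medians of 1132, 1120.5, 1098, 1103 and 1087 bp, a narrower range. Sites that overlapped SRA or met it had a median of 1198 bp (1142 to 1244), which was close to the far sites as a whole, and the widest class was that with gaps of 10 to 50 kb, at 1305 bp (1282 to 1335).

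**Figure D3:**
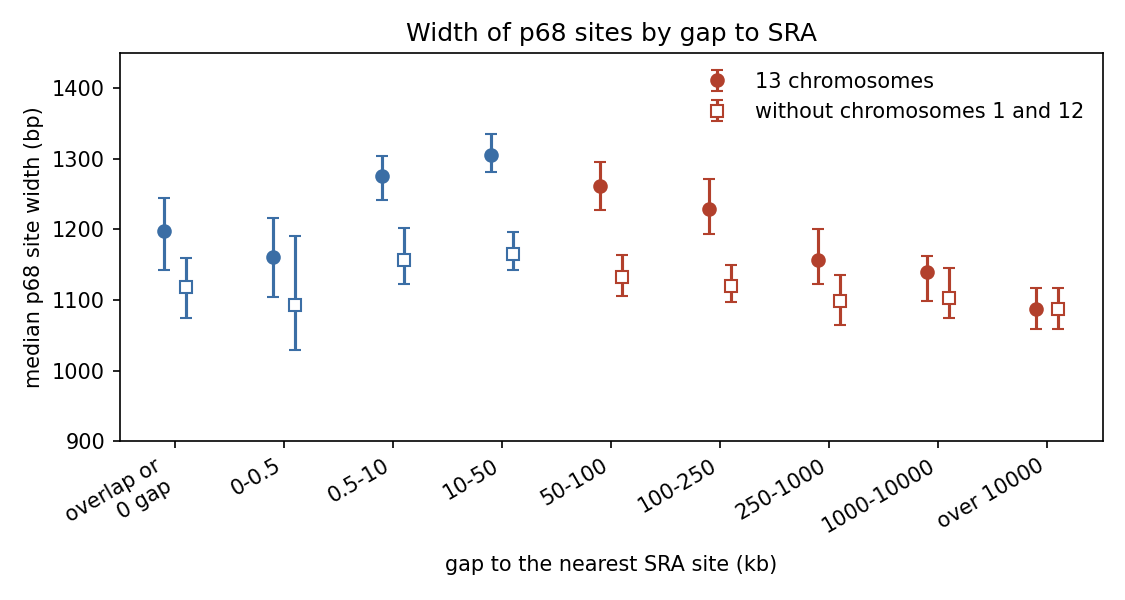
Median width of p68 sites in bp (vertical axis, which does not start at 0) by gap to the nearest SRA site in kb (horizontal axis), with remaining sites in blue and far sites in red; filled circles are all 13 chromosomes, open squares leave out chromosomes 1 and 12, and whiskers are 95% exact binomial intervals of the median. The filled red circles fall from 1261 to 1087 bp with distance, and the open red squares lie between 1087 and 1132 bp.

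Within single chromosomes the far sites were the narrower class on 8 and the wider class on 5. The intervals of the medians did not overlap on 3 of the 13. On chromosome 7 far sites had a median width of 1173 bp (1122 to 1208) and remaining sites 1330 bp (1268 to 1401), and on chromosome 11 these were 1034 bp (1003 to 1079) and 1175 bp (1094 to 1247). On chromosome 12 the order was the opposite, with 1598 bp (1516 to 1695) for far sites and 1375 bp (1299 to 1456) for remaining sites. The ratio of the medians had its lowest value, 0.880, on chromosome 11 and its highest, 1.16, on chromosome 12. On chromosome 1 it was 1.01, with medians of 1508 and 1500 bp. Chromosome 7 was uneven along its length. In its first 60 Mb 186 far sites had a median of 1363.5 bp (1256 to 1474). The 461 remaining sites there had 1315 bp (1265 to 1402), with overlapping intervals. Beyond 60 Mb 718 far sites had 1113.5 bp (1086 to 1163). Only 19 remaining sites lay there, with 1401 bp (1202 to 1584). The boundary at 60 Mb was set with earlier results of these data known.

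**Figure D4:**
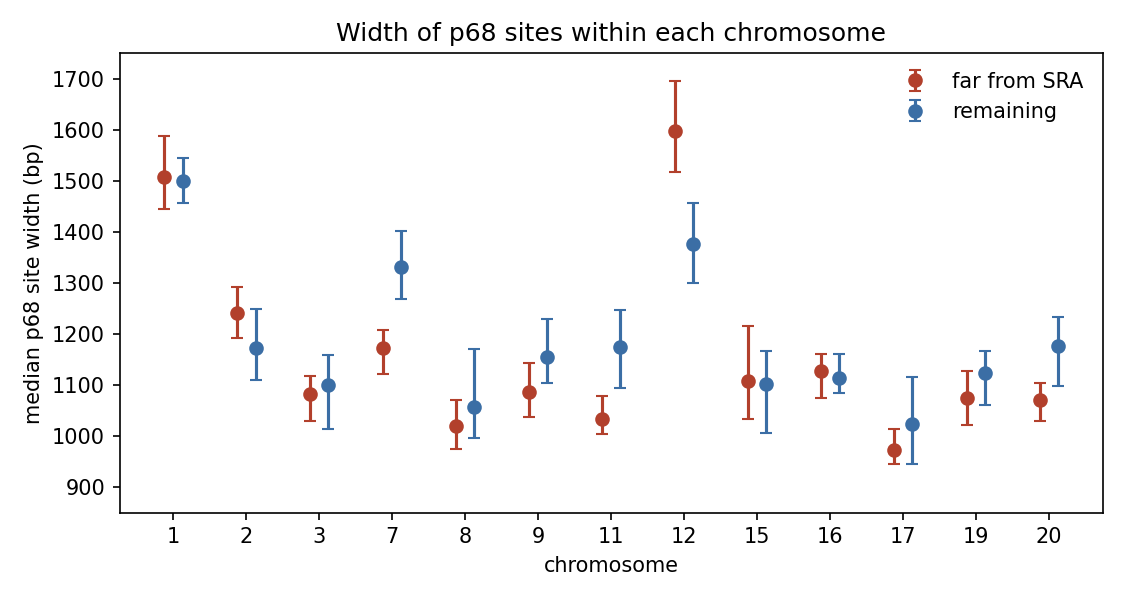
Median width of p68 sites in bp (vertical axis, which does not start at 0) on each of the 13 chromosomes (horizontal axis), far sites in red and remaining sites in blue, with 95% exact binomial intervals of the median. The red and blue intervals are apart on chromosomes 7 and 11, where far sites were narrower, and on chromosome 12, where they were wider (1598 against 1375 bp).

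The wide far sites of chromosome 12 came from its first 40 Mb. There 468 far sites had a median width of 2416 bp (2192 to 2540) and 185 remaining sites one of 2597 bp (2282 to 2873), with overlapping intervals. In the rest of the chromosome 345 far sites had a median of 1104 bp (1068 to 1170) and 377 remaining sites one of 1129 bp (1084 to 1188). Far sites were therefore not wider than the remaining sites in either stretch, and the difference over the whole chromosome came with the larger part of far sites that lay in the first 40 Mb. The boundaries of this and the following stretches were chosen after the widths per window of 10 Mb had been seen.

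Most wide far sites were gathered in a few such stretches. Of the 88 far sites over 5 kb, 47 lay in the first 40 Mb of chromosome 12, 19 between 20 and 30 Mb of chromosome 2 and 12 between 20 and 50 Mb of chromosome 1. These 3 stretches held 78 of the 88 such sites and 999 of all 6522 far sites. Wide remaining sites were gathered there too, with 47 of the 59 over 5 kb among 1012 of the 5547 remaining sites. On chromosome 2 the 261 far sites between 20 and 30 Mb had a median width of 2052 bp (1848 to 2256), and the 676 far sites elsewhere on it one of 1114 bp (1072 to 1149). On chromosome 1 the 270 far sites between 20 and 50 Mb had a median of 1967 bp (1845 to 2124). The 818 remaining sites of that stretch had a median of 1654.5 bp (1597 to 1749), so that here far sites were the wider class with intervals apart. Outside the 3 stretches the medians were 1109 bp (1096 to 1120) for 5523 far sites and 1196 bp (1178 to 1216) for 4535 remaining sites, a ratio of 0.927.

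The widest far site of all lay on chromosome 12 from 32445823 to 32458348. It was 12526 bp wide, its nearest SRA site was 516 kb away, and its nearest p68 site was 525 bp away. The next was on chromosome 12 from 7820866 to 7832034, with a width of 11169 bp, a gap to SRA of 57.4 kb and a gap of 582 bp to the next p68 site. The third was on chromosome 1 from 33036030 to 33046252, with a width of 10223 bp, a gap to SRA of 103 kb and a gap of 2255 bp to p68. All 3 had a p68 neighbour much nearer than was usual for far sites. Of the 20 widest far sites 13 were on chromosome 12, 4 on chromosome 1 and 3 on chromosome 2.

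Far sites were spaced more widely than the remaining p68 sites. The gap from a far site to the nearest other p68 site of either class had a median of 22.0 kb, or 22010.5 bp (21089 to 23053), with quartiles of 5644.5 and 78482.5 bp. For the remaining sites the median was 10425 bp (9821 to 10991), so that the ratio of the medians was 2.11. Another p68 site lay within 10 kb of 2231 far sites, which is 34.2% (33.1 to 35.4%), and of 2723 remaining sites, which is 49.1% (47.8 to 50.4%). The difference was -14.9 percentage points for far minus remaining. At 2 kb the share of far sites with a neighbour was 13.7%, at 20 kb 47.6% and at 50 kb 66.0%, and far minus remaining was -7.01, -18.2 and -17.8 percentage points at these distances.

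**Figure D5:**
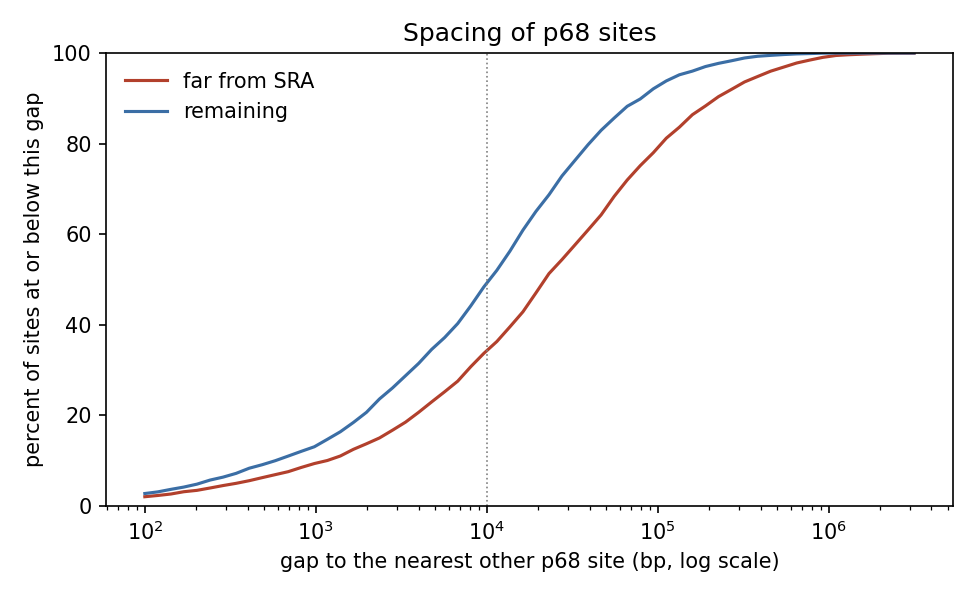
Percent of p68 sites (vertical axis) whose nearest other p68 site lies at or below a given gap in bp (horizontal axis, log scale), for far sites in red and remaining sites in blue, with a dotted line at 10 kb. The red curve runs below the blue one, with 34.2% against 49.1% at 10 kb.

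The wider spacing was seen on most chromosomes and went with the lower density of p68 sites away from SRA given above. The share of sites with a p68 neighbour within 10 kb was lower among far sites on 11 of 13 chromosomes and higher on 2. It was most different on chromosome 11, with 18.5% of far sites and 44.4% of remaining sites, and on chromosome 7, with 41.3% and 61.5%. On chromosome 8 it was 13.7% and 12.9%. On chromosome 16 it was 41.9% for far sites and 36.4% for remaining sites, and the median gap to p68 was also smaller for far sites there, at 14679 bp against 16950 bp. The first 40 Mb of chromosome 16 supplied 402 of its 449 far sites, and 44.3% of these (39.5 to 49.2%) had a p68 neighbour within 10 kb. The 47 far sites in the rest of the chromosome had 21.3% (11.99 to 34.9%) and the 354 remaining sites there 36.2% (31.3 to 41.3%), with overlapping intervals.

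Local comparisons left a smaller difference. In the 117 windows of 10 Mb that held at least 5 sites of each class, with 4607 far sites in all, the share of far sites with a p68 neighbour within 10 kb was lower than that of remaining sites in 77 windows, higher in 36 and equal in 4. The median difference over these windows was -6.52 percentage points, with quartiles of -22.2 and 4.44. The widths of the classes were nearly level within windows. Far sites had the smaller median width in 63 of them and the larger in 54, and the median ratio was 0.976, with quartiles of 0.878 and 1.10. A further 37 windows held far sites only, and these contained 1383 far sites (21.2%).

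Joining p68 sites within 10 kb of each other put the far sites mostly on their own. There were 5078 groups made only of far sites, of which 4291 (84.5%) were single sites, while 2824 of the 3718 groups made only of remaining sites were single (76.0%). Groups of at least 5 sites held 458 far sites (7.02%, 6.43 to 7.67%) and 716 remaining sites (12.9%, 12.1 to 13.8%). The classes seldom mixed, which a limit of 50 kb and joining at 10 kb largely fix. For 5880 far sites (90.2%) the nearest p68 site was itself far, and 59 groups held sites of both classes, with 134 far sites among them.

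The largest group of far sites lay on chromosome 12 from 3000529 to 3101577. Its 17 sites covered 64.6% of a span of 101 kb, and the nearest SRA site was 121 kb from it. The next was a group of 15 sites on chromosome 1 from 28796102 to 28856440, which covered 74.5% of 60.3 kb and came to within 61.3 kb of SRA. A group of 14 sites on chromosome 12 from 31716317 to 31803220 covered 52.7% of 86.9 kb at 122 kb from SRA. In each of these groups most of the span was p68 site, and the widest members were 7603, 9012 and 7465 bp wide. All 3 groups were in the stretches of wide far sites named above.

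Wide and closely spaced far sites thus often occurred in the same places. Over the 117 windows with at least 20 far sites, the median width of the far sites ran from 921 bp to 2953 bp. The highest value was found on chromosome 12 between 30 and 40 Mb, with 111 far sites of which 78.4% had a p68 neighbour within 10 kb. The lowest was found on chromosome 19 between 40 and 50 Mb, with 41 far sites and 26.8%. Over the 39 windows with the fewest p68 sites the median of the window medians was 1070 bp, and over the 39 with the most it was 1171.5 bp. The number of p68 sites in a window and the median width of its far sites had a Spearman rho of 0.41 and a Pearson r of 0.52 on log values. This is a description across windows of a single list, in which neighbouring windows share regional properties. Far and remaining sites of the same window tended to be wide together, with a rho of 0.50 over the 60 windows that held at least 20 of each. On chromosome 12 between 0 and 10 Mb, for example, the medians were 2403 bp for far and 2282 bp for remaining sites, and on chromosome 19 between 0 and 10 Mb they were 1102.5 and 1073 bp.

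Density and width did not go together everywhere. The start of chromosome 19 held 194 far sites in its first 10 Mb, of which 48.5% had a p68 neighbour within 10 kb, and their median width was 1102.5 bp, below that of all far sites. The first 10 Mb of chromosome 16 held 166 p68 sites, all of them far, with 49.4% and a median width of 1096.5 bp. The window of chromosome 2 between 20 and 30 Mb was more crowded, with 261 far sites and 71.6%, and had a median of 2052 bp. Windows with a like share of neighbours and usual widths occurred on chromosome 12 as well, where the 73 far sites between 120 and 130 Mb had 47.9% and a median of 1156 bp. Wide far sites could also be sparse. Between 20 and 30 Mb of chromosome 12, 74 far sites had a median of 1848.5 bp, and 28.4% had a p68 neighbour within 10 kb.

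On the remaining numbered chromosomes, X and Y, where few SRA sites were listed, 1711 of 2053 p68 sites (83.3%) were more than 50 kb from SRA or on a chromosome without it. These were narrower and sparser than the far sites of the 13 chromosomes. Their median width was 1000 bp (988 to 1019) against 1185 bp (1168 to 1198), their median gap to the nearest p68 site was 90562 bp (79404 to 102201) against 22010.5 bp (21089 to 23053), and 15.4% of them (13.7 to 17.2%) had a p68 neighbour within 10 kb against 34.2% (33.1 to 35.4%). No interval of these values overlapped that of the far sites. p68 sites more than 50 kb from SRA thus differed in width and spacing between these chromosomes and the 13, as they did among the 13. The sets share a minimum gap only, and the gaps of the 1711 sites to SRA were not compared with those of the far sites. Chromosome and distance to SRA therefore cannot be told apart here, and neither was tested as a cause.

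A far site is far from the SRA sites that were listed. The authors kept SRA sites found in the intersection of the replicates and subtracted those also seen with control probes against LacZ, and SRA sites of single replicates were not analysed here, so SRA signal near a far site in 1 replicate was not tested. Read depth and copy number along the chromosomes, which can alter how many sites pass a threshold and how wide they are, were not measured here, and their part in the density and width of far sites was not tested.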

How the data were processed

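Sites of p68 ChIP-seq and SRA ChIRP-seq in NTERA2 cells were taken as the authors deposited them, in 1 list per assay of 3 columns (chromosome, start and end in bp), a list of positions with no signal, score or count. Per the methods, single-end reads of 50 bp were aligned to hg19, cleared of duplicates and of alignments below mapping quality 20, and passed to MACS 1.4.2 at a p-value threshold of 1e-05 for p68 and 1e-04 for SRA. Replicate lists were then intersected, and LacZ sites were taken out of the SRA list. The submitters' processing notes name CASAVA 1.8.2, and the aligner is not given in the sources used here. Input was not analysed.

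Positions were used unfiltered and are printed with starts counted from 1, on the assumption that the lists count them from 0. Far sites had an edge-to-edge gap of over 50 kb to SRA. Medians have exact binomial (order statistic) intervals, shares Wilson intervals and densities exact Poisson intervals, all at 95%. Depth is unknown, and no spread between replicates exists. Distances were tested on simulated lists with known gaps. The members, lists and stretches were chosen with earlier results of these data known. The sites printed singly are the widest 3, the farthest 3, the largest 3 groups, the SRA-free intervals with the most far sites and the 2 sites on each side of the limit; an SRA-free interval on each of chromosomes 2 and 12 and the windows named were added after their values were seen. Python 3.11.15 with numpy 2.4.6, scipy 1.17.1, pandas 2.3.3 and matplotlib 3.10.9 was used.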

Additional observations from a re-analysis of the deposited data

How the results depend on the processing

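No paired analysis was possible because each assay has 1 list, and no replicate was left out in turn. Start sites, gene overlap and GC content, planned only for hg19, were not run. The values without the first 40 Mb of chromosome 12, without chromosomes 1 and 12, and as medians over chromosomes were chosen after the data had been seen. By the pooled values and by the medians over windows and over chromosomes, far sites were the narrower and the more widely spaced class under every alternative run. For width this holds for the point values only, since some intervals given below reached past 1. Far sites were the wider class on 5 of the 13 chromosomes.

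The percent of p68 sites that are far, 54.0%, follows the limit. It was 78.6% at 10 kb, 69.6% at 20 kb, 41.3% at 100 kb and 30.9% at 200 kb, and 57.3% for joined p68 sites. It was 61.3% without chromosome 1, 52.0% without chromosome 2, 52.6% without chromosome 7, 58.3% on all numbered chromosomes, X and Y, 45.1% with only far sites within 1 Mb of SRA, 53.0% without the first 40 Mb of chromosome 12 and 61.6% without chromosomes 1 and 12. The ratio of median widths, 0.930, was 0.981, 0.963 and 0.890 at limits of 10, 20 and 200 kb, and 0.858 for summed widths of joined sites. Larger groups of remaining sites add up there, and the 59 groups that held both classes were counted as remaining. The ratio was 0.974 without chromosome 1, 0.906 without chromosome 12 and 0.963 without chromosomes 1 and 12. On all chromosomes it was 0.892, within 1 Mb of SRA 0.956, over windows 0.976 and over chromosomes 0.965. The intervals at 10 kb, without chromosome 1, over windows and over chromosomes reached past 1.

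The percent of far sites with a p68 neighbour within 10 kb, 34.2%, was 38.2%, 36.8%, 32.9% and 31.6% at limits of 10, 20, 100 and 200 kb. It was 32.2% without chromosome 12, 32.1% without its first 40 Mb, 30.5% without chromosomes 1 and 12 and 30.3% on all chromosomes. For joined sites this percent has no value. With neighbours within 2, 5, 20 and 50 kb it was 13.7%, 23.5%, 47.6% and 66.0%, and the difference from the remaining sites was -7.01, -11.7, -18.2 and -17.8 percentage points. At 10 kb that difference, -14.9, was -10.4 without chromosome 1, -10.8 without chromosomes 1 and 12, -18.4 on all chromosomes, -6.52 over windows and -8.84 over chromosomes. The cause of these shifts was not tested. Unknown depth limits every value here.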
